A study of Mus musculus with 3 samples.

Results

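Chemokines are small secreted proteins that attract leukocytes, and chemokine receptors are the G protein-coupled receptors on the attracted cells. The genes of both were selected by their symbols in the array annotation, as CC, CXC, XC and CX3C ligands (Ccl, Cxcl, Xcl, Cx3cl) and receptors (Ccr, Cxcr, Xcr, Cx3cr), with 2 further ligand genes left aside, which gave 51 of 20774 annotated genes. Of these 33 were ligands and 18 were receptors, measured by 74 array features in all. All 51 were retained, since the table held no missing value and no intensity to filter on.

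RNA of whole proximal jejunum, the upper small intestine beyond the duodenum, was compared between mice labelled as Sox4 vilCre KO and wild-type mice on 3 Agilent arrays of 2 colours. In all hybridisations Cy5 marked the knockout sample and Cy3 the wild-type one, and 3 knockout mice were used, 1 for each of arrays 1 to 3. Villin-driven Cre (vilCre) deletes genes in the intestinal epithelium, so leukocytes, vessels and muscle of the same tissue are not its target. The age and sex of the mice are not given in the labels, nor whether each Cy3 sample came from 1 wild-type mouse or several. Dyes were never exchanged, so a dye effect cannot be told apart from genotype. Wild-type samples were not compared with each other, so how far the ratios include the spread among wild-type mice is not known.

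Values are log ratios as deposited, read as log2 of knockout over wild type. Neither the base, which could also be natural, nor the direction is stated in the sources used here, and the direction rests on the dyes in the labels. Each mean is given ± SD over n = 3 arrays, and tests are limma's moderated test of the mean against 0 with Benjamini-Hochberg adjustment over all 20774 genes. The ratio says nothing of how strongly a gene was expressed, and in whole tissue fewer cells of a type and less RNA per cell cannot be told apart.

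Chemokines fall into families by the spacing of their first cysteines, and their roles in the small intestine differ. Epithelial cells secrete Ccl25, Ccl28 and Ccl20, which draw lymphocytes carrying Ccr9, Ccr10 and Ccr6 into the mucosa. Cxcl12, Cxcl13 and Ccl19 arrange lymphocytes in lymphoid tissue through Cxcr4, Cxcr5 and Ccr7. A larger set of ligands is induced in inflammation, in many cases through the transcription factor NF-kB, and attracts monocytes, eosinophils, neutrophils or activated T cells.

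Stretches of 5 ligand promoters are shown, those of 4 neighbouring neutrophil attractants (Cxcl1, Cxcl2, Cxcl3 and Cxcl15) and of Ccl20, an epithelial ligand. They were chosen with the values known, so a difference between them supports nothing. Each is the 160 bases before the annotated start in RefSeq's GRCm38.p6 table, written along the gene, all on the plus strand. Capitals mark matches to a form of the NF-kB site (GGG, any 2 bases, then TTTCC) or to ACAAAG or ACAATG, a core bound by SOX proteins, each searched on both strands. No match to the first motif overlapped one to the others.
Cxcl1, chr5:90891085-90891244: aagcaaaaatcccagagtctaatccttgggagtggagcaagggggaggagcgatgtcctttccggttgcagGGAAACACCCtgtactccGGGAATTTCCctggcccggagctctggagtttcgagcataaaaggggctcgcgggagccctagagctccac
Cxcl2, chr5:90903739-90903898: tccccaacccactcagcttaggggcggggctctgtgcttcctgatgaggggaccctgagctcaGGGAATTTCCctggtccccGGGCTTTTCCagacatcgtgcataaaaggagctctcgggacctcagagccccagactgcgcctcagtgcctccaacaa
Cxcl3, chr5:90785941-90786100: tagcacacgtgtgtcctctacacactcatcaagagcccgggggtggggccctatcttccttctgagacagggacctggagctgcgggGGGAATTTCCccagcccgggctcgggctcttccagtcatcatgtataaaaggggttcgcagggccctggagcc
Cxcl15, chr5:90794374-90794533: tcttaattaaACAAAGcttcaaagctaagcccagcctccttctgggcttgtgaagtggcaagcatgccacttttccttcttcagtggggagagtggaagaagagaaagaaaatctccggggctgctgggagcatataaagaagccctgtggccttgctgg
Ccl20, chr1:83116606-83116765: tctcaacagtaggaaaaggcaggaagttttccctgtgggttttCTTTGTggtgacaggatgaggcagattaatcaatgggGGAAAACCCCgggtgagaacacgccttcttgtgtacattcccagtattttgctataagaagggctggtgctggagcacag

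In the lines above, Cxcl1, Cxcl2 and Cxcl3 each hold GGGAATTTCC within 97 bases of the start. Cxcl15 holds no NF-kB match there but a SOX match beginning 150 bases before the start, and Ccl20 holds one of each. Promoters of 39 of the 51 genes, without that of Cxcl5, were found in the table, as windows from 250 bases before to 50 bases after the start. The NF-kB motif occurred in the windows of 5 of 24 ligand genes (Ccl9, Ccl20, Cxcl1, Cxcl2 and Cxcl3), in 1 of 15 receptor genes (Ccr3) and in 1.63% of all 32851 windows. A SOX core occurred for 4 of the 24 ligand genes and 7 of the 15 receptor genes, and in 28.6% of all windows. A gene was counted if any of its windows matched, so these shares differ in unit from that of all windows. Counted by window, 11 of 43 member windows held a SOX core (25.6%) and 6 the NF-kB motif (14.0%). A match is a description of the letters and not a measured binding site. The 5 ligands with an NF-kB match had a median log2 ratio of -0.11 and the 19 without one 0.035. On arrays 1, 2 and 3 the medians were -0.057, 0.0 and -0.124 with a match and 0.022, -0.036 and 0.139 without. The order was thus opposite on array 2.

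The targeted gene was a weak check of the labels. Sox4 had log2 ratios of -0.66, 0.18 and -0.46 on arrays 1, 2 and 3 (mean -0.31 ± 0.44, adjusted p = 0.332), and its 3 features averaged -0.95, -0.41 and 0.42. Array 2, although labelled as a knockout, was thus not below wild type for the mean of the Sox4 features. Which features lie in the deleted part of the gene was not examined, and most chemokine values are given by array for this reason. The Y-linked gene Eif2s3y was lower on every array (mean -7.28 ± 0.25) and the X-inactivation gene Xist was higher (1.71 ± 0.18), both past the threshold (adjusted p = 0.000253 and 0.0209). The Y-linked genes Uty (-3.05 ± 0.91, adjusted p = 0.0495) and Kdm5d (-1.11 ± 0.41, adjusted p = 0.0643) were also lower on every array. Sex-linked RNA thus differed between the channels on all arrays. The sex of the mice is not labelled, and a difference in sex between the channels cannot be told apart from genotype for any chemokine gene.

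Array 2 also stood apart from the others among the ligands. Over the 51 genes the log2 ratios correlated at r = 0.51 between arrays 1 and 3, at 0.057 between arrays 1 and 2 and at 0.057 between arrays 2 and 3. Over all 20774 genes these values were 0.57, 0.43 and 0.41, and all arrays share slide, dye orientation and the kind of reference. The low values came with the ligands, a difference that was not tested. For the 33 ligands arrays 1 and 2 had r = -0.18, and without Ccl26 and Ccl8, the ligands farthest from the median on array 1, r was -0.056 over 31 genes. For the 18 receptors arrays 1 and 2 had r = 0.59, while array 3 had r = 0.24 with array 1 and 0.23 with array 2, so that array 3 was the one apart. A ratio opposite in sign to both other arrays was found on array 2 for 9 of 33 ligands and 2 of 18 receptors, against 17.7% of all genes. The same was found on array 1 for 5 of the 51 genes (13.8% of all genes) and on array 3 for 8 (16.2%), of which 5 were receptors.

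**Figure D1:**
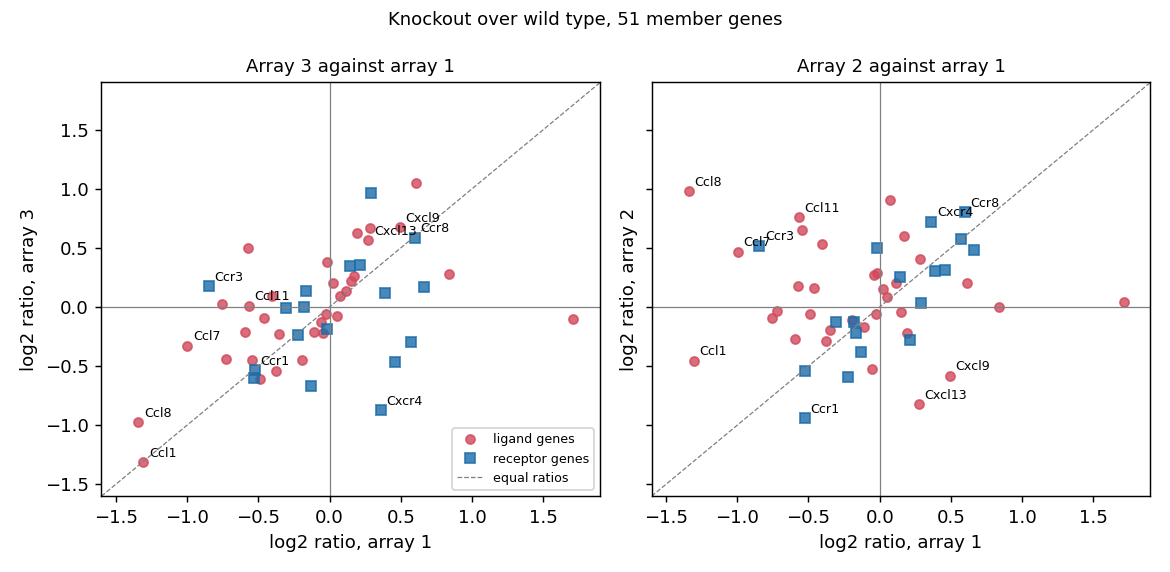
Log2 ratios of the 51 genes on array 3 (left) and array 2 (right) against array 1, with ligands as circles and receptors as squares. Ccl8 lies at -1.34 on array 1 and -0.97 on array 3 but at 0.98 on array 2, and Cxcl13 lies at 0.27 and 0.57 but at -0.82 on array 2.

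None of the 51 genes passed an adjusted p of 0.05 in limma's test, where 0.327% of all genes did. An unadjusted p under 0.05 was found for 13 genes (25.5%), and for 26.3% of all genes. Of these 5 had means above 0 and 8 below, against 12.0% and 14.3% of all genes. The share among chemokine and receptor genes was thus near that of the array as a whole. It depended on the arrays used: 6 genes had an unadjusted p under 0.05 without array 1 (15.7% of all genes), 16 without array 2 (22.1%) and 7 without array 3 (18.7%). Half-widths of the 95% intervals had a median of 0.36, so that shifts of smaller size could not be told from 0 for a typical member.

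Ligands and receptors had similar centres. Means were below 0 for 23 of the 51 genes (53.5% of all genes) and above 0 for 28 (46.4%). The median log2 ratio was 0.006 over the 33 ligands and 0.084 over the 18 receptors, where all genes had -0.027. Ligand medians were -0.057, 0.044 and -0.06 on arrays 1, 2 and 3, and receptor medians were 0.061, 0.14 and -0.004. The difference of ligand from receptor median was -0.12, -0.099 and -0.056 on the 3 arrays, each smaller than the SD of a typical member. Among ligands 7 of 33 had an unadjusted p under 0.05 (3 above 0 and 4 below), and among receptors 6 of 18 (2 above and 4 below). All 3 arrays lay on 1 side of 0 for 16 ligands (6 above, 10 below) and 10 receptors (5 above, 5 below), where 23.2% of all genes lay above and 27.3% below on every array. Ligands varied more between arrays, with a median SD of 0.31, than receptors (0.24) or all genes (0.22).

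**Figure D2:**
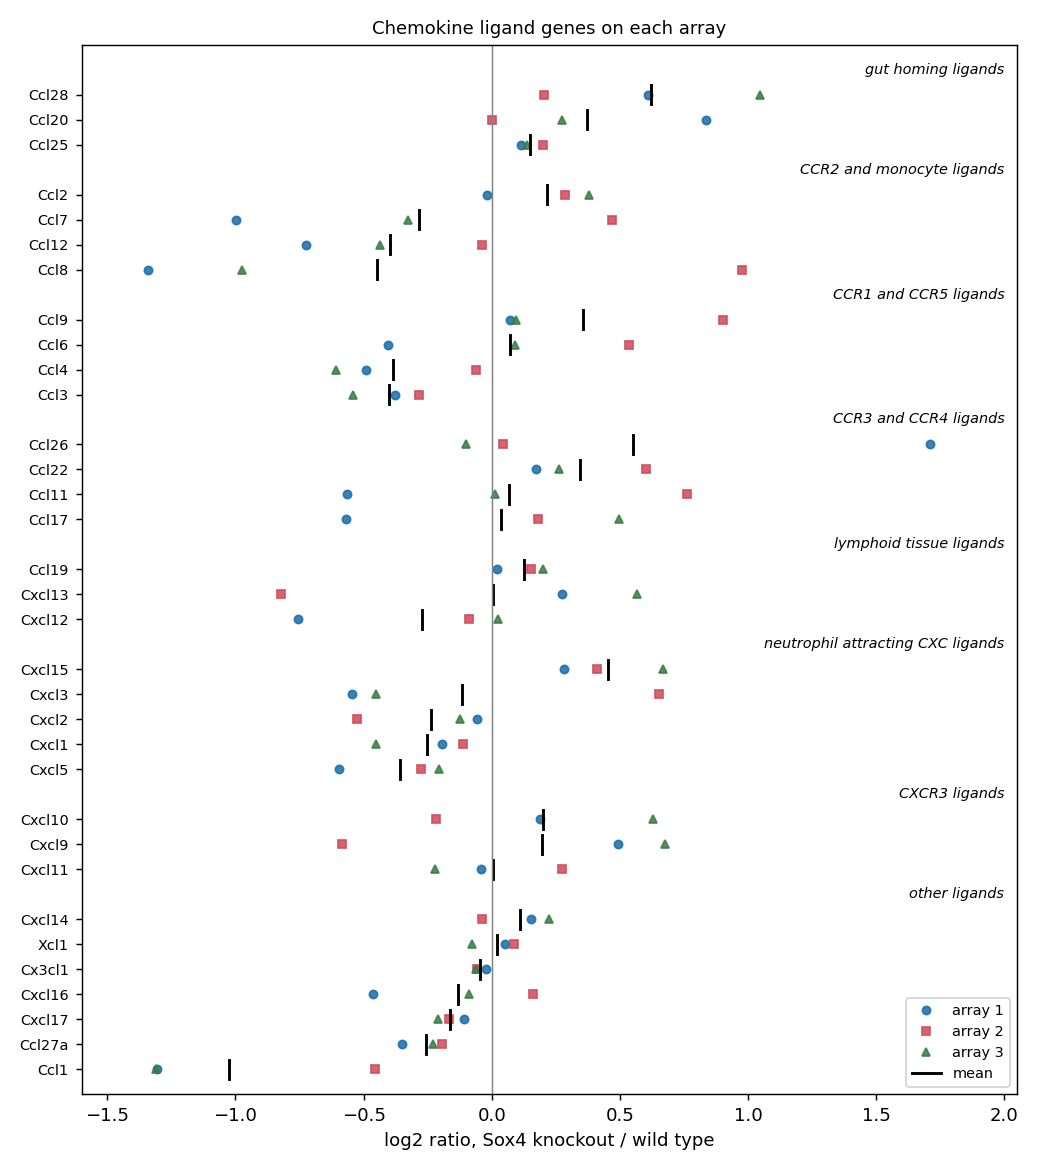
Log2 ratios of the 33 ligand genes on each array (points), with their mean (black bar), ordered by role. Ccl28, Ccl22 and Cxcl15 lie above 0 and Ccl1, Ccl3 and Cxcl5 below 0 on every array, while Ccl8 ranges from -1.34 to 0.98.

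Epithelial ligands of mucosal homing had means above 0. Ccl28, which attracts IgA-producing plasma cells through Ccr10, had log2 ratios of 0.61, 0.20 and 1.05 on arrays 1, 2 and 3. Its mean was 0.62 ± 0.42 (95% interval 0.17 to 1.08, adjusted p = 0.120), above 0 on every array but without passing the threshold. Ccl20, the ligand of Ccr6 made by epithelium over lymphoid follicles, had 0.84, 0.00 and 0.28 (mean 0.37 ± 0.43, adjusted p = 0.259). Array 2 showed no difference for it.

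Ccl25, the small intestinal ligand of Ccr9, had the narrow values 0.11, 0.20 and 0.14. Its mean of 0.15 ± 0.044 (95% interval -0.12 to 0.42, adjusted p = 0.412) hid features that disagreed, which averaged -0.23, 0.15 and 0.54. The first was below 0 and the last above 0 on every array, so no single direction holds for Ccl25. The feature below 0 is assigned to a non-coding RefSeq transcript.

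Receptors of the same axes went in different directions. Ccr6, carried by B cells, Th17 cells and innate lymphoid cells, had 0.66, 0.48 and 0.17 (mean 0.44 ± 0.25, adjusted p = 0.135). Ccr10, the receptor of Ccl28, had -0.13, -0.38 and -0.67 (mean -0.39 ± 0.27, adjusted p = 0.166), below 0 on every array where its ligand was above. Ccr9, the receptor that directs T cells and plasma cells to the small intestine, had 0.46, 0.31 and -0.46 (mean 0.10 ± 0.50, adjusted p = 0.771) and changed sign between arrays.

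Plasma cell genes lay on both sides of 0 beside Ccr10. The plasma cell receptor gene Tnfrsf17 had -0.63, -0.31 and -1.05, and Mzb1, listed as 2010001M09Rik, had -0.54, -0.21 and -0.88. The immunoglobulin joining chain gene Jchain, listed as Igj, had 0.41, 0.77 and -0.16, and Sdc1 had a mean of 0.078. Over 11 genes of B and plasma cells the median was -0.044, with 6 means below 0 (53.5% of all genes). The B cell gene Cd79a had a mean of 0.78 ± 0.54. The part of these genes in the values of Ccr10 and Ccr6 was not tested.

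Ligands of monocytes, made by stroma and macrophages, differed widely between arrays. Ccl8, which in the mouse acts on Ccr8, had -1.34, 0.98 and -0.97 on arrays 1, 2 and 3 (mean -0.45 ± 1.25, adjusted p = 0.551). Ccl7, a ligand of Ccr2, had -0.997, 0.47 and -0.33 (mean -0.29 ± 0.73), and Ccl12, another, had -0.72, -0.036 and -0.44 (mean -0.40 ± 0.35, adjusted p = 0.195). In each of these array 1 was lowest and array 2 highest. Ccl2, the main monocyte attractant, had -0.019, 0.28 and 0.38 (mean 0.21 ± 0.21, adjusted p = 0.338). It rested on 10 features, whose SD within an array was 0.11, 0.057 and 0.071, less than the SD between arrays. The receptor Ccr2 had -0.18, -0.12 and 0.004 (adjusted p = 0.597). Genes of macrophages and monocytes had medians of 0.054, 0.49 and 0.079 on the 3 arrays, also highest on array 2. Of their means 8 of 11 were above 0 (46.4% of all genes). Their part in these ligands was not tested.

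The receptor Ccr1, found on monocytes, neutrophils and other myeloid cells, had -0.53, -0.94 and -0.54. Its mean of -0.67 ± 0.24 (95% interval -1.01 to -0.33, adjusted p = 0.0777) was the lowest among the receptors, and no array reached 0. Of its ligands, Ccl3 had -0.38, -0.28 and -0.54 (mean -0.40 ± 0.13, adjusted p = 0.119). Ccl4, which pairs with Ccl3 in activated leukocytes but acts on another receptor, had -0.49, -0.06 and -0.61 (mean -0.39 ± 0.29, adjusted p = 0.178). Both were below 0 on every array. The myeloid ligands Ccl9 (0.071, 0.90 and 0.093) and Ccl6 (-0.41, 0.53 and 0.09) were highest on array 2 and did not follow Ccl3. Beside Ccr1, 3 of the 11 macrophage and monocyte genes had means below 0, where 53.5% of all genes did. The lowest was the Fc receptor gene Fcgr1 with -0.45, -1.01 and 0.079. Among 7 neutrophil genes 4 means were below 0 (53.5% of all genes), with a median of -0.048. The part of either in Ccr1 was not tested.

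Ccr8 and its ligand Ccl1 stood farthest apart. Ccr8, a receptor of Th2 and regulatory T cells, had 0.60, 0.80 and 0.59 (mean 0.66 ± 0.12, 95% interval 0.37 to 0.95, adjusted p = 0.0688), the highest mean of all 51 genes when features were averaged. Ccl1, made by activated T cells and mast cells, had -1.31, -0.46 and -1.31. Its mean of -1.02 ± 0.49 (95% interval -1.53 to -0.52, adjusted p = 0.0764), 2.03-fold lower if the base is 2, was the lowest of all 51. All arrays of Ccr8 lay above 0 and all of Ccl1 below.

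The features of Ccr8 differed in size. One had 1.07, 1.08 and 1.07 and the other 0.13, 0.52 and 0.10. Fitted feature by feature over 31465 features, the first passed the threshold (adjusted p = 0.0490), as 0.289% of features did, and the second did not (adjusted p = 0.299). With the second feature alone (0.25) Ccr8 would rank below Ccl28 (0.62), among others. It was the 1 member feature to pass, and was singled out after its value was seen.

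Mast cell genes had lower ratios on arrays 1 and 3 than on array 2, as Ccl1 did. The protease gene Cpa3 had -3.99, 0.027 and -3.08 and the IgE receptor gene Fcer1a had -4.20, -0.57 and -3.50. Of 8 mast cell genes 7 had means below 0 (53.5% of all genes) and 3 were below 0 on every array (27.3%). Kit, Cma1 and Tpsb2 had the smaller means of -0.078, -0.32 and 0.28. The list medians were -3.50, 0.024 and -2.39 on arrays 1, 2 and 3. None of the 8 genes passed the threshold over all arrays. Their part in the ratio of Ccl1, or of Ccl7 and Ccl8, was not tested.

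Ligands of eosinophils and Th2 cells mostly differed between arrays. Ccl22, a dendritic cell ligand of Ccr4, was above 0 throughout, with 0.17, 0.60 and 0.26 (mean 0.35 ± 0.23, adjusted p = 0.182). Most genes of dendritic cells were above 0 beside it, with 7 of 8 means above 0 (46.4% of all genes). Their array medians were between 0.13 and 0.29, and Irf8 had 0.39, 0.44 and 0.54. Their part in the ratio of Ccl22 was not tested.

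Ccl17, the other Ccr4 ligand, had -0.57, 0.18 and 0.50, and Ccr4 had -0.17, -0.22 and 0.14. The eosinophil attractant Ccl11 had -0.57, 0.76 and 0.012, and its receptor Ccr3 had -0.84, 0.52 and 0.17, so both were lowest on array 1 and highest on array 2. Among 6 eosinophil genes the array medians were -0.35, 0.72 and 0.059, in the same order. Their part was not tested. Ccl26 had 1.71, 0.044 and -0.10 (mean 0.55 ± 1.01, adjusted p = 0.376), a mean that rested on array 1 and was -0.029 without it.

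**Figure D3:**
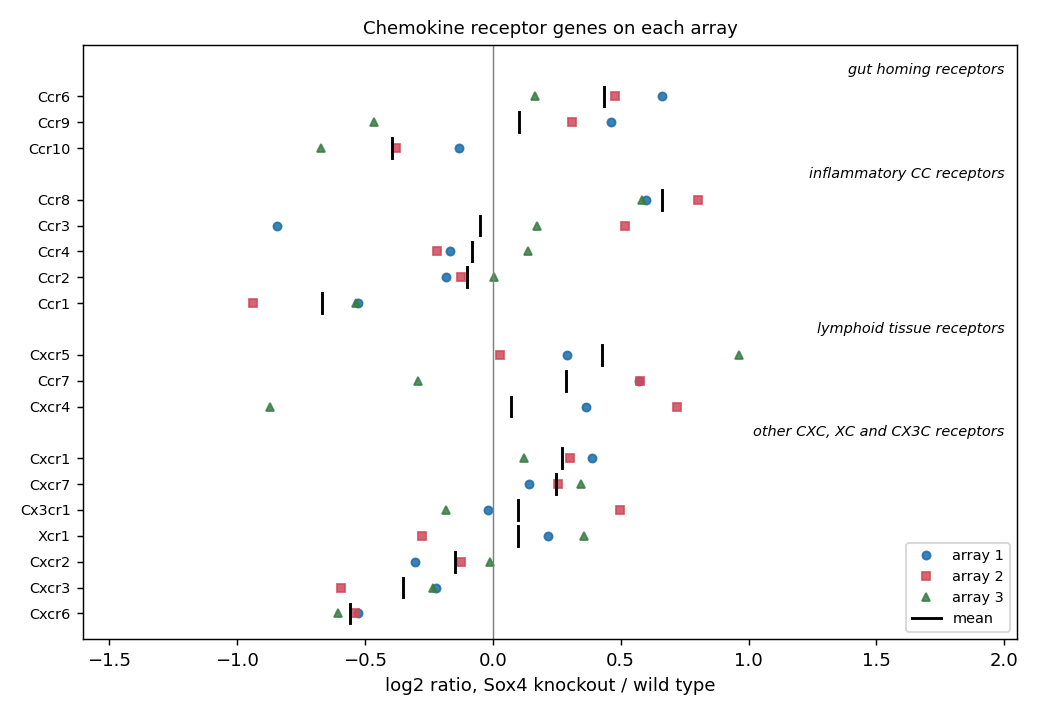
Log2 ratios of the 18 receptor genes on each array (points), with their mean (black bar), ordered by role. Ccr8 and Ccr6 lie above 0 and Ccr1, Cxcr6, Ccr10 and Cxcr3 below 0 on every array, while Cxcr4 ranges from -0.87 to 0.72.

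Cxcr6 and Cxcr3 were below 0 on every array. Cxcr6, which holds T cells and innate lymphoid cells in tissue, had -0.53, -0.54 and -0.60 (mean -0.56 ± 0.041, 95% interval -0.83 to -0.28, adjusted p = 0.0759). Its 2 features, at -0.59 and -0.52, gave the same result on every array, and its SD was the smallest among receptors. Cxcr3, a receptor of Th1 and cytotoxic T cells, had -0.22, -0.59 and -0.23 (mean -0.35 ± 0.21, adjusted p = 0.172).

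Most T cell genes were also below 0. Of 12 measured, 8 had means below 0 (53.5% of all genes) and 7 were below 0 on every array (27.3%). An unadjusted p under 0.05 was found for 5, all lower, against 14.3% of all genes. Cd8b1 had -0.41, -0.82 and -0.67 and Cd8a -0.43, -0.62 and -0.35, while Cd4 had a mean of 0.23 ± 0.096. The list median was -0.27, -0.079 and -0.29 on the 3 arrays. Among 8 genes of innate lymphoid and natural killer cells 6 means were below 0 (53.5% of all genes), with a median of -0.096. Their part in the values of Cxcr6 and Cxcr3 was not tested.

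The ligands of these receptors did not follow them. Cxcl16, the membrane-bound ligand of Cxcr6, had -0.46, 0.16 and -0.089 (mean -0.13 ± 0.31, adjusted p = 0.612). The interferon-induced Cxcr3 ligands Cxcl9 and Cxcl10 were above 0 on arrays 1 and 3 and below 0 on array 2. Cxcl9 had 0.49, -0.58 and 0.68 (mean 0.20 ± 0.68, adjusted p = 0.656), and Cxcl10 had 0.19, -0.22 and 0.63 (mean 0.20 ± 0.42, adjusted p = 0.513). The 2 features of Cxcl10 averaged -0.20 and 0.60, so its direction was not settled. Cxcl11 had a mean of 0.004 ± 0.25 from features at -0.21 and 0.22. The gene of their inducer Ifng, interferon gamma, had -0.43, -1.04 and -0.45, lowest on array 2 as Cxcl9 and Cxcl10 were. Ifng was below 0 on every array, and Cxcl11 was instead highest on array 2, with -0.0425, 0.275 and -0.22. The part of Ifng in these ligands was not tested.

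Among attractants of neutrophils, Cxcl5 (-0.60, -0.27 and -0.21), Cxcl1 (-0.19, -0.11 and -0.45) and Cxcl2 (-0.057, -0.53 and -0.12) were below 0 on every array. Cxcl5, an epithelial product, had a mean of -0.36 ± 0.21 (adjusted p = 0.164), Cxcl1 -0.25 ± 0.18 (adjusted p = 0.259) and Cxcl2 -0.24 ± 0.25 (adjusted p = 0.329). Cxcl3 had -0.54, 0.65 and -0.45. Cxcl15, an epithelial chemokine first described in lung, had 0.28, 0.41 and 0.67 (mean 0.45 ± 0.20, 95% interval 0.13 to 0.77, adjusted p = 0.113). It was above 0 on every array, opposite to Cxcl1, Cxcl2 and Cxcl5.

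The neutrophil receptor Cxcr2 had -0.30, -0.12 and -0.012 (mean -0.15 ± 0.15, adjusted p = 0.468) and Cxcr1 had 0.39, 0.30 and 0.12 (mean 0.27 ± 0.14, adjusted p = 0.216). They lay on opposite sides of 0 on every array. Of 7 other neutrophil genes none passed the threshold. An unadjusted p under 0.05 was found for 1, Fpr1, with a mean below 0 (-0.58 ± 0.43), against 14.3% of all genes.

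Genes of lymphoid tissue organisation varied between arrays. Cxcl13, which draws B cells into follicles, had 0.27, -0.82 and 0.57 (mean 0.006 ± 0.73), and its receptor Cxcr5 had 0.29, 0.03 and 0.96 (mean 0.43 ± 0.48, adjusted p = 0.236). Both were lowest on array 2 and highest on array 3. B cell genes had no common order, with 0.67, -0.14 and 1.06 for Ms4a1 but 0.69, 1.36 and 0.28 for Cd79a and 0.15, -0.054 and -0.51 for Cd79b. Ccr7, which guides naive T cells and dendritic cells, had 0.57, 0.58 and -0.29 (mean 0.29 ± 0.50, adjusted p = 0.408). Its ligand Ccl19, whose near-identical gene copies the array may not separate, had 0.022, 0.15 and 0.20 (mean 0.12 ± 0.092, adjusted p = 0.510).

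Cxcl12, a stromal ligand, had -0.76, -0.089 and 0.025 (mean -0.27 ± 0.42, adjusted p = 0.377) and its receptor Cxcr4 0.36, 0.72 and -0.87 (mean 0.07 ± 0.84), with opposite signs on every array. Cxcr7, now named Ackr3, which takes up Cxcl12 without G protein signalling, had 0.14, 0.26 and 0.35 (mean 0.25 ± 0.10, adjusted p = 0.233). The list of lymphoid tissue stroma and follicle epithelium had a median of 0.031 over 10 genes. Of their means 4 were below 0 (53.5% of all genes). Gp2, a marker of M cells, had 0.56, 0.40 and 0.86 (adjusted p = 0.0843). In the same list Spib had -1.211, 0.99 and -0.525 and Tnfrsf11b had -0.418, -0.429 and -0.144. Endothelial genes had a median of -0.034 over 9 genes. The part of either list in these values was not tested.

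The remaining ligands and receptors differed little. Ccl27a, a ligand of Ccr10 with near-identical gene copies, had -0.35, -0.19 and -0.23 (mean -0.26 ± 0.083, adjusted p = 0.215), and its 3 features were all below 0. Cxcl17, Cxcl14, Xcl1 and the membrane-bound Cx3cl1 had means from -0.16 to 0.11. Xcr1, the receptor of cross-presenting dendritic cells, had 0.22, -0.28 and 0.36, and Cx3cr1, carried by resident macrophages, -0.019, 0.50 and -0.18. Neither mean exceeded its SD.

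**Figure D4:**
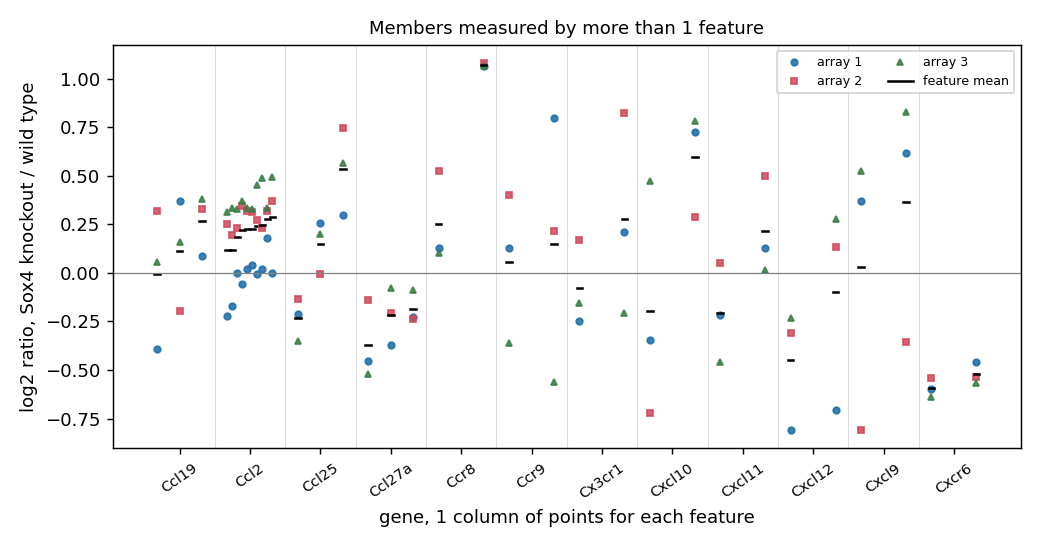
Log2 ratios on each array for the 12 genes measured by more than 1 feature, with a column of points and a mean (black bar) for each feature. The features of Ccl2, Ccl27a and Cxcr6 lie close together, while those of Ccl25 and Cxcl10 lie on both sides of 0 and those of Ccr8 average 0.25 and 1.07.

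Agreement between features set a limit on single genes. Of the 51 genes 39 rested on 1 feature. Of the 12 with more, 7 had feature means on 1 side of 0, among them Ccr8, Cxcr6, Ccl2 and Cxcl12, and 5 had means on both sides, which were Ccl19, Ccl25, Cx3cr1, Cxcl10 and Cxcl11. On the array 275 genes had 10 features of 1 accession, and their features had a median SD of 0.079 within an array. The SD of a gene's ratio between arrays had a median of 0.22, but over all genes and not these 275. Whether features of a gene repeat 1 probe was not examined, so 0.079 is no measure for members with few features.

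Ligands were set beside the receptors they are known to bind, in 29 pairs of 28 ligands and 17 receptors. Both means were above 0 in 5 pairs, both below 0 in 9 and on opposite sides in 15, so pairs had no common direction. The widest gaps were those of Ccl1 (-1.02) and Ccl8 (-0.45) from Ccr8 (0.66), of Ccl9 (0.36) from Ccr1 (-0.67) and of Ccl28 (0.62) from Ccr10 (-0.39). Ccl8 and Ccr8 had opposite signs on arrays 1 and 3 and the same sign on array 2. Pairs share receptors and are not independent of each other. Ccl20 and Ccr6 were both above 0 by similar amounts, and Ccl3 and Ccr1 both below.

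**Figure D5:**
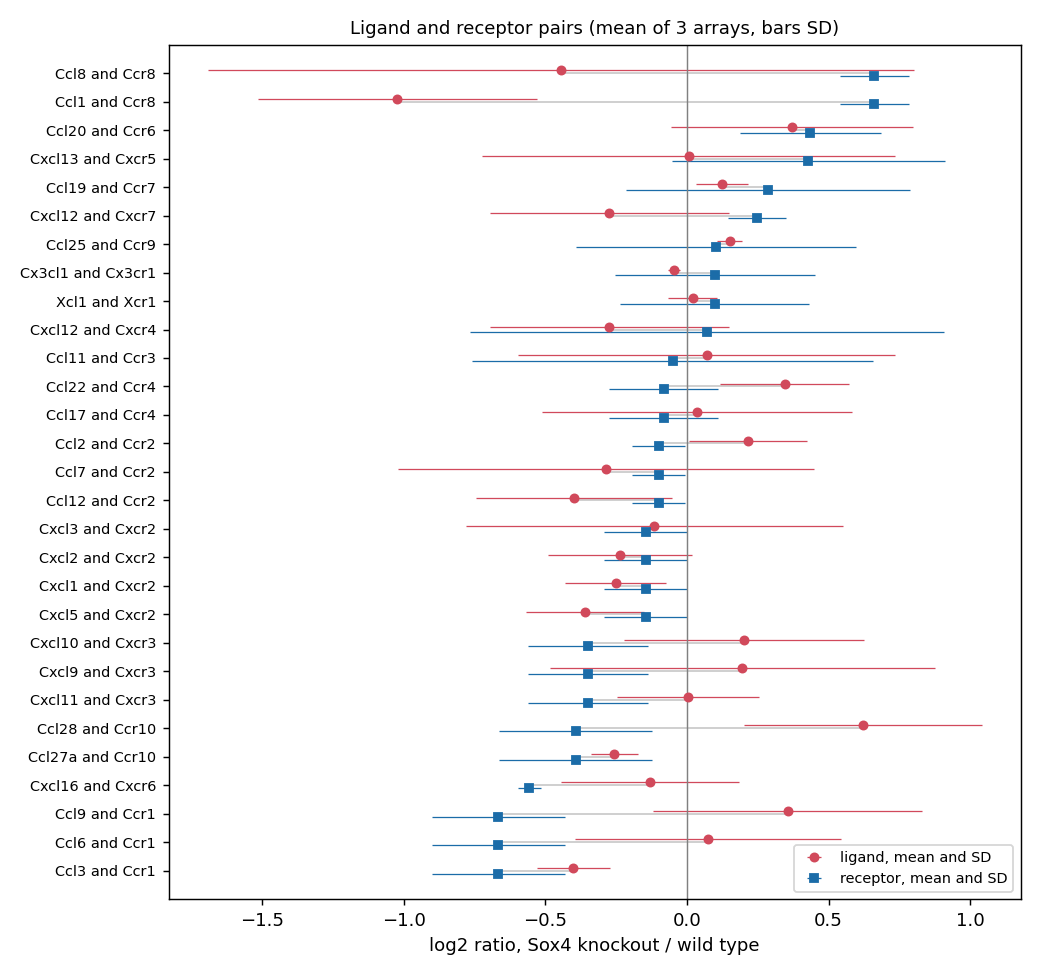
Mean log2 ratio over 3 arrays, with SD, of each ligand (circles) and its receptor (squares) for 29 pairs ordered by the receptor's mean. In 15 pairs the points lie on opposite sides of 0, with the widest gap for Ccl1 and Ccr8.

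Chemokine-related genes outside the symbol rule leaned below 0. Of 13 measured, 8 had means below 0 (53.5% of all genes). An unadjusted p under 0.05 was found for 5, all of them below 0, where 14.3% of all genes had one. None passed the adjusted threshold. The platelet chemokine gene Ppbp had -0.84, -0.60 and -1.07 (adjusted p = 0.0645), and Ccrl1, now named Ackr4, a receptor that clears Ccl19 and Ccl25, had -0.79, -0.59 and -0.81 (adjusted p = 0.0643). The scavenger receptor Ackr2, listed as Ccbp2, had -0.60, -0.45 and -0.088.

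Of 28 genes that act downstream of the receptors, 4 had an unadjusted p under 0.05 with a mean above 0 (12.0% of all genes) and 6 with a mean below 0 (14.3%), and none passed the adjusted threshold. These counts are small and the share above 0 is near that of all genes. Rgs2, which ends G protein signals, had -0.90, -0.99 and -1.09 (adjusted p = 0.0531), the receptor kinase gene Grk5 -0.60, -0.65 and -0.48 (adjusted p = 0.0753) and the tyrosine kinase gene Ptk2b 0.61, 1.20 and 0.52 (adjusted p = 0.0829). Of 16 genes of leukocyte adhesion 2 were above 0 (12.0% of all genes) and 1 below (14.3%) by unadjusted p, near or below the shares of all genes. The selectin ligand gene Selplg had 0.36, 0.92 and 0.37, and the integrin gene Itgb2 0.20, 0.55 and 0.46.

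Of 23 inducers of chemokine genes 3 were above 0 (12.0% of all genes) and 4 below (14.3%) by unadjusted p, near the shares of all genes, and none passed the adjusted threshold. The cytokine gene Tnf had 0.74, 1.22 and 0.69 (mean 0.88 ± 0.30, adjusted p = 0.0665) and Il6 had -2.02, -0.69 and -1.49 (mean -1.40 ± 0.66, adjusted p = 0.0696). Rela, an NF-kB subunit gene, had -0.35, -0.56 and -0.37 (adjusted p = 0.107). The other subunit genes listed, Nfkb2, Relb and Nfkb1, had means of 0.46 ± 0.43, 0.13 ± 0.26 and -0.053 ± 0.25. Of the 5 ligands with an NF-kB match in the promoter window, Ccl9 was above 0 and Cxcl1 and Cxcl2 below 0 on every array, Ccl20 was not below 0 on any, and Cxcl3 differed in sign.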

How the data were processed

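The deposited table gives 62976 features on 3 arrays as log ratios of the channels, read here as log2 although the deposited table does not state the base. No source used here states the authors' background correction, normalization or filters. Array medians of 0.007, 0.003 and 0.011 show values centred within arrays, used without further scaling. Features were named by the platform annotation. Of these 31465 had 1 symbol, none had several and 31511 were unnamed here. Features of a gene were averaged on each array. An intercept-only limma model (version 3.58.1, R 4.3.3, eBayes moderation with 3.51 prior beside 2 residual degrees of freedom) gave two-sided p-values for a mean of 0, adjusted over 20774 genes, and checked on simulated data. Current names came from a RefSeq table of GRCm38.p6. Tables were made with Python 3.11.15 and pandas 2.3.3. Correlations across genes are descriptions, since genes are not independent replicates.

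The members and lists were chosen with earlier results of these data known. Values on all arrays were given for members with an unadjusted p under 0.05 and the same sign on all arrays (13), for up to 2 members by smallest p in other roles, and for mucosal homing pairs (26 genes in all). Other members named were chosen after their values were seen, as were genes of other lists beyond the 4 with the smallest p. The number of arrays limits the precision. Replicates are separate mice per the labels' titles. Alternatives were the median of features, centring, quantile normalization, a robust prior, updated names, single features and leaving out each array.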

Additional observations from a re-analysis of the deposited data

How the results depend on the processing

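Knockout and wild type were compared within each array, and no further pairing was possible because all arrays form 1 group. None of the 51 genes passed the adjusted threshold under any of the 9 alternatives run. Median of features, centring, quantile normalization, a robust prior and updated names kept the direction of all 26 named genes and their side of the threshold. With single features, each gene was taken by its feature of median ratio (the lower where there were 2), which lowers genes of 2 features by construction. The median of all genes was then -0.067 in place of -0.027, and the receptor median 0.0027 in place of 0.084. Ccr8 had 0.25 in place of 0.66 and lost its rank as the highest, and Cxcl10 had -0.20. The Ccr8 feature that passed in the feature fit was the higher one and was left out here. In this setting 3 genes had an unadjusted p under 0.05 above 0 in place of 5. Leaving out 1 array gave 2 to 7 such genes above 0 and 3 to 9 below, ligand medians from -0.0905 to 0.036 and receptor medians from -0.052 to 0.065. Means then changed sign for Ccl26 (-0.029 to 0.88), Ccr9 (-0.077 to 0.385), Cxcl9 (-0.045 to 0.58) and Cxcl10 (-0.014 to 0.41). Only the 26 named genes were followed in this way, and the cause of the changes was not tested. Without intensities, members near background could not be told from well-measured ones.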

Other observations

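Many chemokine genes lie side by side in the genome, and neighbours in RefSeq gene order shared a direction in some groups only. Cxcl9 and Cxcl10 (both 0.20) and Cx3cr1 (0.098) and Ccr8 (0.66) had means above 0. In the group of Ccl2, Ccl7, Ccl11, Ccl12, Ccl8 and Ccl1 the mean log2 ratios were 0.21, -0.29, 0.069, -0.40, -0.45 and -1.02. The neighbours Ccl3 and Ccl4 had -0.40 and -0.39, while the adjoining Ccl9 and Ccl6 had 0.36 and 0.073. In the CXC group Cxcl15 (0.45) lies between Cxcl3 (-0.11) and Cxcl1 (-0.25). Of the 5 genes in this group 4 had means below 0 (53.5% of all genes). Among the receptors Cxcr6 (-0.56) and Ccr1 (-0.67) lie on either side of Xcr1 (0.098), and Cxcr1 (0.27) lies next to Cxcr2 (-0.15). These groups were described after their values were seen.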
